A study of Saccharomyces cerevisiae with 15 samples.

Results

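The genes described here are those of budding yeast whose symbol is ATG followed by a number, the core and accessory genes of autophagy. RefSeq's annotation of assembly R64 lists 37 of them, and 34 had a probe set on the Affymetrix Yeast 2.0 array, 1 each, among 5449 S. cerevisiae genes measured. ATG42, ATG44 and ATG45 were matched to no probe set. Current names were used, so that YLR211C appears as ATG38 and YPL250C as ATG41. Each gene was read in 5 strains with 3 biological replicates per strain, on 15 arrays. All strains derive from S288C (MATα) and grew in glucose minimal medium with G418, which keeps the plasmid. In the gcn5 null strain a hygromycin marker replaced GCN5, and this strain carried the control plasmid. Wild-type carried the same control plasmid. The 3 gcn5-F221A strains kept the native GCN5 and carried, on a low-copy plasmid, a GCN5 allele with 1 changed residue, a dominant mutant, behind TEF promoter mutants with relative strengths of 0.32, of 0.68 and of 0.95.

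In autophagy a double membrane closes around cytoplasm and delivers it to the vacuole, where it is broken down. In yeast the Atg1 kinase complex starts the process when the TORC1 kinase is quiet, Atg9 vesicles and the lipid transfer protein Atg2 supply membrane, a phosphatidylinositol 3-kinase marks it, and the ubiquitin-like proteins Atg8 and Atg12 are conjugated to extend it. Receptors tie single cargoes, such as mitochondria, peroxisomes or endoplasmic reticulum, to Atg8 and to the scaffold Atg11. The cytoplasm-to-vacuole targeting (Cvt) pathway uses the same machinery in growing cells to deliver vacuolar hydrolases. Gcn5p is the histone acetyltransferase of the SAGA coactivator complex.

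The values are log2 RMA signals, so a difference of 1 is a doubling of signal. GCN5 read 5.73 to 5.83 in gcn5 null, 8.86 to 8.97 in wild-type, 11.43 to 11.56 at strength 0.32, 11.76 to 12.07 at 0.68 and 13.08 to 13.20 at 0.95; its probe set reads the native and the plasmid copy together. Array medians lay between 6.0 and 6.07. Strain means of the MATα markers MF(ALPHA)1, SAG1 and STE3 ran from 7.43 to 14.51, and SAG1 averaged 9.54 in gcn5 null against 12.49 in wild-type. The MATa markers MFA1, MFA2, STE2 and BAR1 ran from 6.32 to 8.66, so none of the 4 was at background. Probe sets for S. pombe on the same array, which this RNA is not meant to bind, had a median of 3.48 and a 95th percentile of 5.18. Over 7 control genes, the 5′ signal lay below the 3′ signal, a measure of RNA and labelling quality, with a mean difference of -3.29 (SD 0.21) in gcn5 null, -3.85 (SD 0.20) in wild-type, -4.00 (SD 0.40) at 0.32, -3.34 (SD 0.46) at 0.68 and -3.55 (SD 0.35) at 0.95, with n = 3 in each strain, and the arrays of gcn5 null did not overlap those of wild-type. Its part in the results below was not tested. In RNA of whole cultures, fewer cells that express a gene and less RNA per cell cannot be told apart.

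Of the 34 genes, 31 were above the S. pombe 95th percentile in at least 1 strain mean. ATG29, a partner of the scaffold Atg17, read 3.06 to 3.49 over all arrays, and ATG16, the partner of Atg5, read 3.74 to 4.35. Both lay below 5.18 on 15 of 15 arrays. ATG15, the vacuolar lipase, lay below it on 14 arrays and reached 5.40 on the other. These 3 genes stay in the counts, but no size of change is given for them. The 17 S. pombe atg probe sets read 2.83 to 5.08. ATG41, an Atg9-interacting protein, had a signal of 11.61 to 12.77, and ATG8 had 10.24 to 11.41; levels of different genes are not compared, since each probe set binds with its own strength.

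The ATG genes as a group had higher signals in gcn5 null and at 0.95 than in wild-type. Each gene's wild-type mean was subtracted from its signal, and the median of these differences over the 34 genes was taken on each array. It was 0.35, 0.35 and 0.28 on the arrays of gcn5 null, against 0.02, -0.03 and -0.02 in wild-type. At 0.95 it was 0.22, 0.20 and 0.22. No array of either strain overlapped wild-type, though the wild-type arrays were centred on their own means, which holds their medians near 0. At 0.32 it was -0.03, 0.13 and 0.19, and at 0.68 it was -0.08, 0.40 and 0.46. Replicate 1 was thus the lowest array of both strains and lay at or under wild-type, while replicates 2 and 3 of 0.68 were the highest of all 15. The median over all 5449 genes, taken the same way, lay between -0.0333 and 0.0332 on every array.

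**Figure D1:**
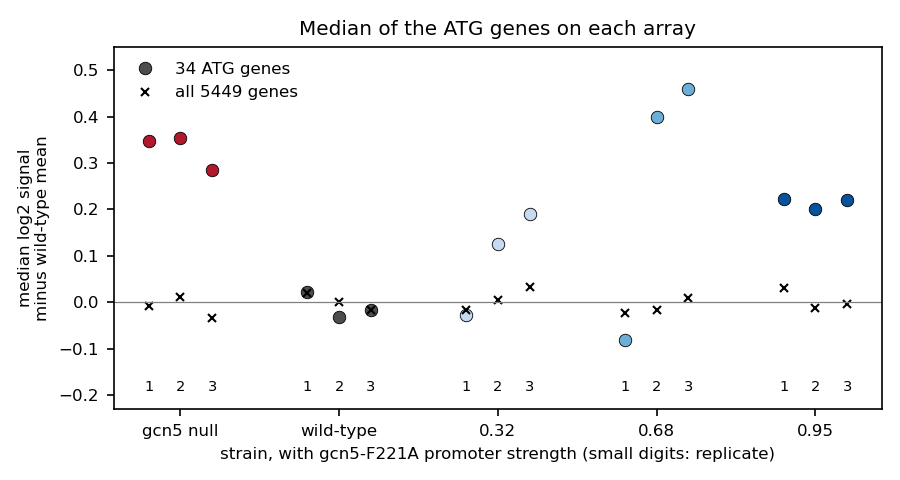
Median, on each of 15 arrays, of the log2 signal minus each gene's wild-type mean, over the 34 ATG genes (circles) and over all 5449 genes (crosses). The small digits give the replicate number within each strain. The gcn5 null arrays sit at 0.28 to 0.35 and the 0.95 arrays at 0.20 to 0.22, while replicate 1 of 0.68 sits at -0.08 and its other replicates at 0.40 and 0.46.

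In gcn5 null the largest rises were those of ATG1, ATG38, ATG8, ATG33, ATG3, ATG22, ATG2, ATG20, ATG7 and ATG40. By limma at an adjusted p under 0.05, 13 of 34 ATG genes were higher than in wild-type, 1 was lower and 20 did not pass. Over all genes 41% were called, 18.4% higher and 22.6% lower, so the share of ATG genes called (41.18%) was that of all genes and their calls lay on the higher side. The median difference was 0.30 over the ATG genes and -0.01 over all genes, and 27 of 34 differences were positive. Without the 3 dim genes, 12 were higher and 1 was lower.

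ATG1, the protein kinase that starts autophagosome formation, had 7.43, 7.34 and 7.21 in gcn5 null, against 5.95, 5.93 and 6.06 in wild-type. All null arrays were above all wild-type arrays, and the log2 difference of 1.35 (SE 0.28, 2.55-fold, adjusted p = 0.00232) was the largest among the ATG genes. ATG13, the regulatory subunit of this kinase, had 9.65, 9.84 and 9.64 in gcn5 null, against 9.25, 9.29 and 9.26 in wild-type (difference 0.44, SE 0.16, adjusted p = 0.0379). Its 2 sets of arrays did not overlap either. Of the 6 genes of the kinase complex and its scaffolds, 2 rose and 4 did not pass the test: the scaffold genes ATG17 and ATG31 had differences of 0.28 and 0.44, ATG11 had -0.09, and ATG29 was dim.

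Among the conjugation genes, ATG8, the ubiquitin-like protein joined to phosphatidylethanolamine, had 11.37, 11.40 and 11.41 in gcn5 null, against 10.37, 10.24 and 10.62 in wild-type. The null arrays were close together and above every wild-type array, with a difference of 0.98 (SE 0.22, 1.97-fold, adjusted p = 0.00365). ATG7, the E1-like enzyme that activates both Atg8 and Atg12, had 7.95, 8.07 and 7.97, against 7.37, 7.29 and 7.23 in wild-type (0.70, SE 0.12, adjusted p = 7.36e-04). ATG3, the E2-like enzyme for Atg8, had 7.79, 7.51 and 7.30, against 6.41, 6.93 and 6.73 in wild-type (0.84, SE 0.26, adjusted p = 0.0206), also without overlap. The genes that act on Atg12 and on the maturation of Atg8 gave no such values: the differences were 0.01 for ATG5, -0.11 for ATG10, 0.18 for ATG12 and 0.25 for the Atg8 protease gene ATG4, and none passed. ATG16 passed (adjusted p = 0.0284) with a signal at background in both strains. In all, 4 of 8 conjugation genes were higher.

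Of the 8 genes of Atg9 transport and membrane supply, 3 rose. ATG2, the lipid transfer protein, had 8.53, 8.81 and 8.79 in gcn5 null, against 8.17, 7.80 and 7.88 in wild-type (0.76, SE 0.16, adjusted p = 0.00224). ATG20, a sorting nexin of selective autophagy, had 8.05, 8.17 and 8.25, against 7.36, 7.36 and 7.63 in wild-type (0.70, SE 0.16, adjusted p = 0.00388). ATG18, the phosphoinositide-binding partner of Atg2, had 8.86, 8.98 and 8.96, against 8.78, 8.61 and 8.53 in wild-type (0.29, SE 0.10, adjusted p = 0.0339). In all 3 genes the null arrays lay above the wild-type arrays. ATG9, the transmembrane lipid scramblase, had a difference of 0.34 that did not pass, as did ATG21 at 0.13, ATG23 at 0.18, ATG27 at 0.21 and ATG41 at 0.16.

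ATG38, a subunit of the PI 3-kinase complex of autophagy, had 8.10, 7.86 and 7.58 in gcn5 null, against 6.19, 7.12 and 6.78 in wild-type. Its wild-type arrays were the most scattered of all ATG genes in that strain (SD 0.47), yet every null array lay above them, and the difference was 1.15 (SE 0.20, 2.21-fold, adjusted p = 6.81e-04). ATG14, the other subunit particular to this complex, had a difference of -0.16 and did not pass. In the vacuole, ATG22, an exporter of amino acids, had 8.99, 8.91 and 8.90 in gcn5 null, against 8.27, 8.14 and 8.07 in wild-type (0.77, SE 0.16, adjusted p = 0.00253), again without overlap. ATG26, a sterol glucosyltransferase that stands outside these groups, had 9.64, 9.68 and 9.81, against 9.97, 9.79 and 9.81 in wild-type, and its difference of -0.14 did not pass.

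The 7 genes grouped as receptors, with ATG33 counted among them, did not move one way in gcn5 null: 2 rose, 1 fell and 4 did not pass. ATG33, a mitochondrial membrane protein of mitophagy, had 11.22, 11.21 and 11.07, against 10.08, 10.35 and 10.38 in wild-type (0.90, SE 0.31, adjusted p = 0.0334). ATG40, the receptor of the endoplasmic reticulum, had 8.03, 8.09 and 8.21, against 7.84, 7.57 and 7.38 in wild-type (0.51, SE 0.18, adjusted p = 0.0342). ATG32, the receptor on the outer mitochondrial membrane, had 8.40, 8.36 and 8.39, against 8.45, 8.68 and 8.85 in wild-type. All of its null arrays were lower, and it fell by 0.28 on the log2 scale (SE 0.09, adjusted p = 0.0269); this call, the 1 on the lower side, was lost under both other normalizations tried. ATG34, a receptor for alpha-mannosidase, had a difference of -0.49 (adjusted p = 0.0918), and ATG19, ATG36 and ATG39 had 0.48, 0.34 and 0.48 without passing.

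Over all 34 genes, 21 had null and wild-type arrays that did not overlap, 19 higher and 2 lower, where 62.9% of all genes did so, 29.5% higher and 33.4% lower. The calls of ATG1, ATG2, ATG7, ATG8, ATG20, ATG22 and ATG38 held under each of 24 alternatives. These 24 leave out the cut at an absolute log2 difference over 1, which of these genes only ATG1 and ATG38 pass. The call of ATG3 was lost without wild-type replicate 1 or null replicate 1 or 2, and those of ATG13 and ATG33 without any single array of either strain. Those of ATG16, ATG18, ATG32 and ATG40 were each lost without wild-type replicate 2 or 3, null replicate 2 and 1 or more other null arrays. Of the 14 calls, leaving out wild-type replicate 2 or 3 gave 8 each (23.5%, against 33.6% and 34.6% of all genes). Leaving out null replicate 1, 2 or 3 gave 8, 7 and 9. These were 23.5%, 20.6% and 26.5%, against 30.8%, 31.6% and 34.8% of all genes, so the ATG share then lay below that of all genes.

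**Figure D2:**
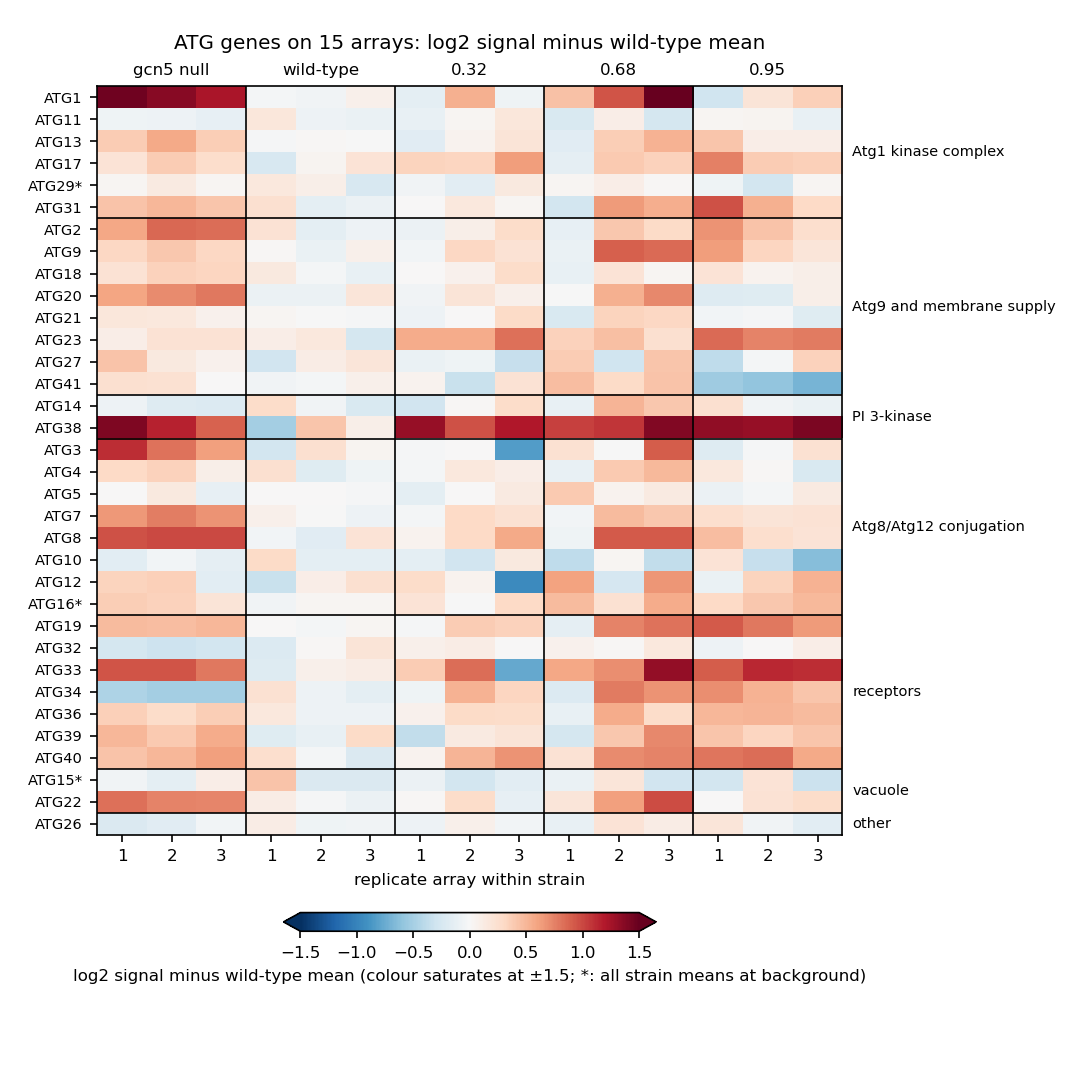
Log2 signal of the 34 ATG genes (rows, by role) on 15 arrays (columns, 3 replicates per strain) minus each gene's wild-type mean; red is higher and blue lower, colour saturates at 1.5, and an asterisk marks the 3 genes whose strain means all lie at background. The rows of ATG1, ATG8, ATG7, ATG20 and ATG22 are red in gcn5 null and pale at 0.95, the rows of ATG19, ATG33 and ATG40 are red at 0.95, and replicate 1 of 0.68 is paler than replicates 2 and 3.

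With gcn5-F221A at the highest strength, 4 of the 7 genes that rose were of the receptor group, in which ATG33 was counted. Against wild-type, 7 ATG genes were higher at 0.95, 1 was lower and 26 did not pass, a share of 23.53% called where 12.5% of all genes were called (7.25% higher, 5.23% lower). Of the 7 receptor genes, 4 rose, none fell and 3 did not pass, with a median difference of 0.54, and the median over the 34 genes was 0.19, against -0.00 over all genes. By limma, 0 of the 6 kinase complex genes passed (2 at an unadjusted p under 0.05, ATG17 and ATG31), and 1 of the 8 conjugation genes did, the dim ATG16. At 0.95 and in wild-type, 16 genes had arrays that did not overlap, 15 higher and 1 lower, where 38.8% of all genes did so.

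The slope over strengths 0 (wild-type), 0.32, 0.68 and 0.95, in log2 units per unit of promoter strength, was called for 8 ATG genes, 7 upward and 1 downward (15.7% of all genes, 8.39% upward and 7.27% downward). ATG19, ATG33, ATG36, ATG40, ATG38, ATG23 and ATG41 passed both this test and that of 0.95 against wild-type, as did ATG16. The strain means stood in rising order over wild-type, 0.32, 0.68 and 0.95 in 8 ATG genes (23.5%, against 6.5% of all genes): ATG2, ATG19, ATG31, ATG33, ATG34, ATG36, ATG38 and ATG40. Only ATG10, the E2-like enzyme for Atg12, had them in falling order.

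Among the receptors, ATG19, which binds the cargo of the Cvt pathway, had 9.16, 9.13 and 9.19 in wild-type, 9.15, 9.54 and 9.51 at 0.32, 9.03, 9.91 and 9.98 at 0.68, and 10.08, 9.95 and 9.80 at 0.95. All 0.95 arrays were above wild-type, whereas replicate 1 of 0.32 and of 0.68 was not. The difference at 0.95 was 0.78 (SE 0.20, 1.72-fold, adjusted p = 0.0215) and the slope 0.80 (adjusted p = 0.0159). ATG33 had 10.08, 10.35 and 10.38 in wild-type, 10.65, 11.11 and 9.50 at 0.32, 10.85, 10.97 and 11.59 at 0.68, and 11.18, 11.40 and 11.37 at 0.95. It was above wild-type on all arrays of 0.68 and 0.95, and replicate 3 of 0.32 was the lowest array of any strain. That array also had the lowest 5′ less 3′ control difference of the series, -4.47, whose part in this value was not tested. Its difference at 0.95 was 1.05 (SE 0.31, 2.07-fold, adjusted p = 0.0429).

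ATG40 had 7.84, 7.57 and 7.38 in wild-type, 7.65, 8.10 and 8.27 at 0.32, 7.82, 8.31 and 8.33 at 0.68, and 8.40, 8.43 and 8.16 at 0.95 (0.95 minus wild-type 0.74, SE 0.18, adjusted p = 0.0174). ATG36, the receptor of peroxisomes, had 7.18, 6.94 and 6.94 in wild-type, 7.09, 7.30 and 7.29 at 0.32, 6.91, 7.58 and 7.29 at 0.68, and 7.52, 7.53 and 7.50 at 0.95 (0.50, SE 0.13, adjusted p = 0.0300). In both genes the 0.95 arrays lay above wild-type, and replicate 1 of 0.32 and of 0.68 did not. The calls of ATG36 were lost under 1 other normalization, quantiles over the S. cerevisiae probe sets. The receptors that did not pass at 0.95 were ATG34 at 0.54, ATG39, a receptor of the nuclear envelope, at 0.38, and ATG32 at 0.01, with a 95% interval of -0.19 to 0.21.

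ATG38 had already risen at the lowest strength. Its signals were 6.19, 7.12 and 6.78 in wild-type, 8.0, 7.65 and 7.89 at 0.32, 7.72, 7.77 and 8.08 at 0.68, and 8.02, 8.01 and 8.11 at 0.95. Every array of the 3 gcn5-F221A strains, like those of gcn5 null, was above every wild-type array, and the differences were 1.15 at 0.32 (adjusted p = 0.0110), 1.16 at 0.68 (adjusted p = 0.00858) and 1.35 at 0.95 (adjusted p = 0.00106), each with SE 0.20. Between 0.95 and 0.32 the difference was 0.20 (95% interval -0.23 to 0.63), which did not pass. ATG38 was the 1 gene of the 34 called in all 4 strains against wild-type, with the count at 0.32 resting on it and on ATG23.

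ATG23, a peripheral membrane protein that works in Atg9 transport, had 7.32, 7.38 and 6.96 in wild-type, 7.77, 7.77 and 8.05 at 0.32, 7.56, 7.67 and 7.45 at 0.68, and 8.07, 7.97 and 8.0 at 0.95. No array of the 3 strains overlapped wild-type, though 0.68 was below both 0.32 and 0.95. The difference was 0.65 at 0.32 (SE 0.11, adjusted p = 0.0110), 0.34 at 0.68 (adjusted p = 0.0649) and 0.80 at 0.95 (adjusted p = 8.43e-04). ATG41, the Atg9-interacting protein, had 12.26, 12.28 and 12.39 in wild-type, 12.36, 11.98 and 12.52 at 0.32, 12.77, 12.60 and 12.74 at 0.68, and 11.78, 11.72 and 11.61 at 0.95. The 0.68 arrays were the highest and the 0.95 arrays the lowest of the series, so the strain means of ATG41 did not fall step by step. It fell by 0.60 at 0.95 (SE 0.12, adjusted p = 0.00664), and was the 1 ATG gene called between 0.95 and 0.32, where 1.91% of all genes were called, 0.661% higher and 1.25% lower (difference -0.58, adjusted p = 0.0337). This call, and that of its slope of -0.39 (adjusted p = 0.0452), were lost with any single 0.95 array left out, among others.

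At 0.32, 2 ATG genes were higher than wild-type and none was lower, where 1.6% of all genes were called, 1.43% higher. At 0.68, 4 were higher and none was lower, where 12.4% were called, 5.34% higher and 7.05% lower. Arrays that did not overlap wild-type were found in 3 ATG genes at 0.32, all higher (17% of all genes, 9.76% higher), and in 8 at 0.68, all higher (28%, 12.1% higher). The 4 were ATG38 and ATG16 with ATG1 at 1.06 (SE 0.28, adjusted p = 0.0318) and ATG22 at 0.59 (SE 0.16, adjusted p = 0.0363), both lost with any single wild-type array or 0.68 replicate 2 or 3 left out. The 0.95 calls of ATG23, ATG38 and ATG41 held under each of 24 alternatives. Those of ATG16, ATG19, ATG33, ATG36 and ATG40 did not pass with wild-type replicate 2 or 3, or 0.95 replicate 2, left out. Of the 8 calls at 0.95, leaving out wild-type replicate 1, 2 or 3 gave 5, 3 and 3. Of all genes, 6.97%, 7.07% and 8.2% were then called. Leaving out 0.95 replicate 1, 2 or 3 gave 4, 3 and 5, where 8.04%, 6.96% and 7.29% of all genes were called. With 3 called the ATG share was 8.82%, little above that of all genes. Leaving out 0.68 replicate 1 gave 13 (38.2%, against 17.4% of all genes). The 8 slopes became 5 with wild-type replicate 2 or 3 left out, where 8.48% and 10.7% of all genes were called. They became 4 or 5 with 0.95 replicate 2 or 3 left out, where 9.01% and 9.47% of all genes were called. With 0.68 replicate 1 left out they became 18 (52.9%, against 23.7% of all genes). Of the 2 calls at 0.32, ATG38 was lost with 0.32 replicate 1 left out, which leaves 1. With only the arrays compared in each fit, every ATG call at 0.32 and at 0.68 was lost, and 0.11% of all genes were called at 0.32 and 0.0734% at 0.68.

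**Figure D3:**
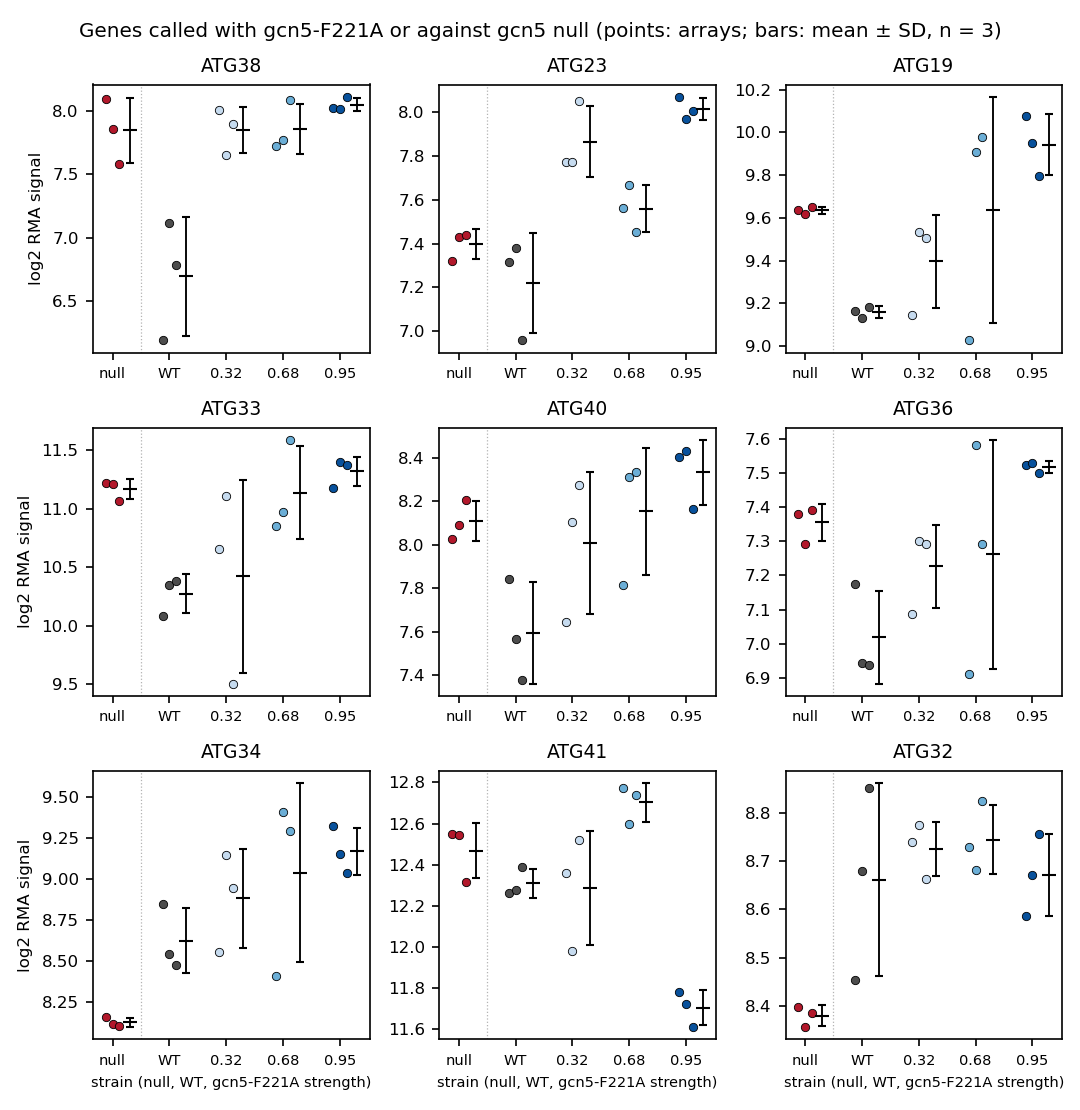
Log2 RMA signal of 9 ATG genes in gcn5 null, wild-type and gcn5-F221A at 0.32, at 0.68 and at 0.95; points are arrays, and bars give the mean and SD of 3 arrays. ATG38 lies above wild-type in all 4 other strains, ATG19, ATG33, ATG40 and ATG36 are above wild-type at 0.95, ATG34 and ATG32 are lowest in gcn5 null, and ATG41 is lowest at 0.95.

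Set directly against gcn5 null, strength 0.95 had lower signals of ATG1, ATG3, ATG7, ATG8, ATG20, ATG22 and ATG41 and higher ones of ATG34, ATG23 and ATG32. Of the 34 genes, 3 were higher at 0.95 than in gcn5 null, 7 were lower and 24 did not pass, where 33.1% of all genes were called (19.5% higher, 13.6% lower). The share of ATG genes called, 29.41%, lay below that of all genes, and the median difference was -0.05, against 0.03 over all genes. Arrays of both strains did not overlap in 14 genes, 5 higher and 9 lower, where 54.6% of all genes did so.

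ATG1 had 5.68, 6.18 and 6.33 at 0.95, against 7.43, 7.34 and 7.21 in gcn5 null, a difference of -1.27 (SE 0.28, adjusted p = 0.00420). ATG20 had 7.26, 7.27 and 7.55 at 0.95, against 8.05, 8.17 and 8.25 in gcn5 null (-0.80, adjusted p = 0.00208). ATG22 had 8.17, 8.38 and 8.43 at 0.95, against 8.99, 8.91 and 8.90 in gcn5 null (-0.61, adjusted p = 0.0124). In these genes all 0.95 arrays lay under the null arrays and among or close to those of wild-type. ATG8 had 10.87, 10.66 and 10.61 at 0.95, against 11.37, 11.40 and 11.41 in gcn5 null (-0.68, adjusted p = 0.0315). ATG7 had 7.55, 7.49 and 7.51 at 0.95, against 7.95, 8.07 and 7.97 in gcn5 null (-0.48, adjusted p = 0.00920). ATG3 had 6.50, 6.67 and 6.92 at 0.95, against 7.79, 7.51 and 7.30 in gcn5 null (-0.84, adjusted p = 0.0253). Thus the RNA signals of ATG8 and of the genes for its activating and its conjugating enzyme were all lower at 0.95 than in gcn5 null, without overlap.

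ATG41 was lower as well, with a difference of -0.76 (adjusted p = 4.42e-04), since its null arrays of 12.55, 12.54 and 12.31 stood above those of 0.95. ATG34 had 9.32, 9.15 and 9.04 at 0.95, against 8.16, 8.12 and 8.11 in gcn5 null. It was 2.05-fold higher at 0.95 (difference 1.04, SE 0.22, adjusted p = 0.00305), with wild-type between them at 8.85, 8.54 and 8.48. ATG23 had 8.07, 7.97 and 8.0 at 0.95, against 7.32, 7.43 and 7.44 in gcn5 null (0.62, SE 0.11, adjusted p = 0.00113), and ATG32 had 8.59, 8.67 and 8.76, against 8.40, 8.36 and 8.39 in gcn5 null (0.29, SE 0.09, adjusted p = 0.0271). ATG38 did not pass between 0.95 and gcn5 null (0.20, 95% interval -0.23 to 0.64), nor did ATG33 at 0.15, ATG40 at 0.22 or ATG19 at 0.31. The calls of ATG1, ATG7, ATG20, ATG23, ATG34 and ATG41 held under each of 24 alternatives, ATG22 was lost without 0.95 replicate 1, and ATG3, ATG8 and ATG32 were lost without null replicate 1 or 2 or 0.95 replicate 2, ATG3 also without 0.95 replicate 1, and ATG8 and ATG32 also without 0.95 replicate 3 or null replicate 3. The call of ATG32 was also lost under both other normalizations.

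**Figure D4:**
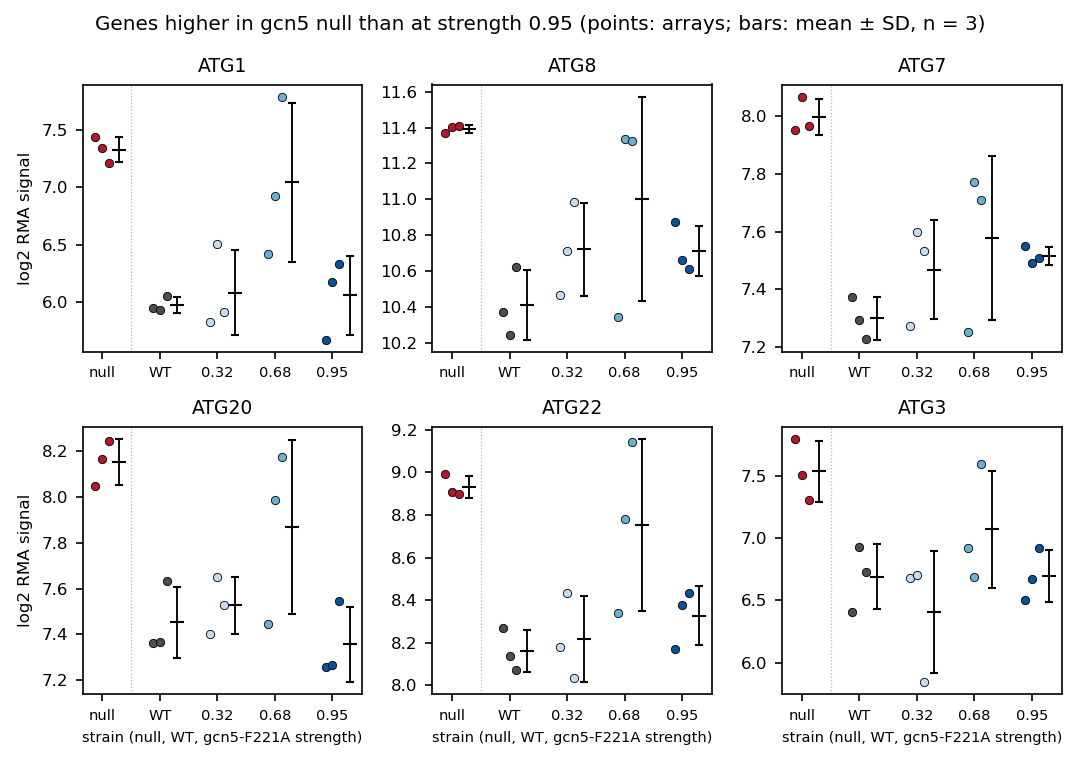
Log2 RMA signal of ATG1, ATG8, ATG7, ATG20, ATG22 and ATG3 in gcn5 null, wild-type and gcn5-F221A at 0.32, at 0.68 and at 0.95; points are arrays, and bars give the mean and SD of 3 arrays. In each panel the gcn5 null arrays lie above those of wild-type and of 0.95, and the 0.68 arrays are spread widely, from 6.42 to 7.79 for ATG1.

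**Figure D5:**
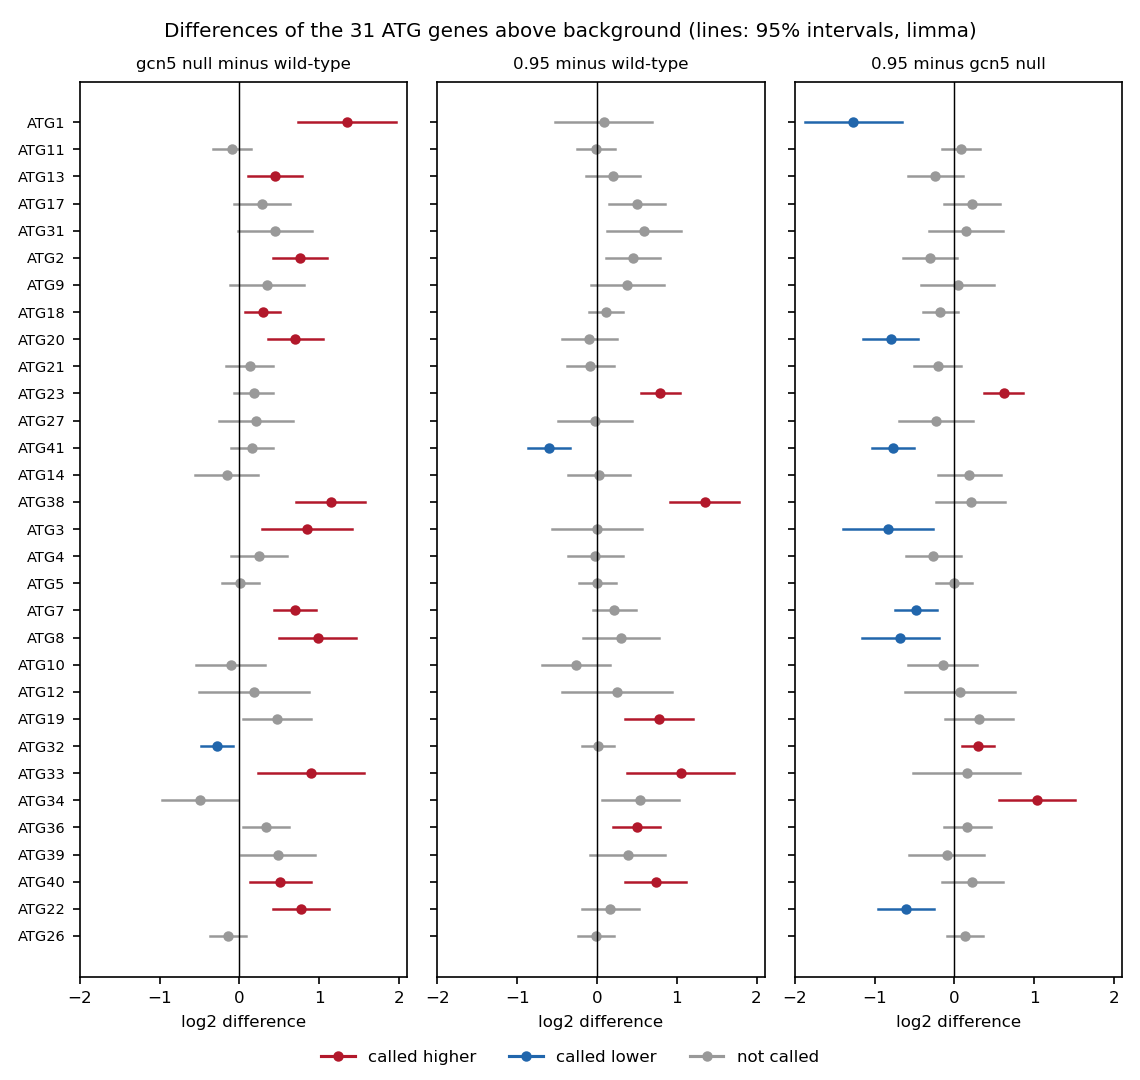
Log2 differences with 95% intervals from limma for the 31 ATG genes above background: gcn5 null minus wild-type (left), 0.95 minus wild-type (middle) and 0.95 minus gcn5 null (right); red marks genes called higher, blue genes called lower and grey genes not called. ATG1 is at 1.35, 0.08 and -1.27 in the 3 panels, ATG38 at 1.15, 1.35 and 0.20, and ATG34 at -0.49, 0.54 and 1.04.

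The strain at 0.68 was the least even. The median SD within it was 0.32 over the ATG genes and 0.18 over all genes, against 0.08 and 0.08 in gcn5 null, 0.19 and 0.11 in wild-type, 0.18 and 0.15 at 0.32, and 0.15 and 0.12 at 0.95. Replicate 1 was the lowest of its 3 arrays in 23 of 34 ATG genes (67.6%, against 38.7% of all genes), and the 0.68 mean was the highest of the 4 strengths in 19 (55.9%, against 26% of all genes). ATG1 had 6.42, 6.92 and 7.79 at 0.68 and ATG8 had 10.35, 11.34 and 11.33. Replicate 1 of ATG8 was thus at the level of wild-type, and the other replicates were at that of gcn5 null. At 0.32, replicate 1 was the lowest of its arrays in 21 genes (61.8%, against 33.3% of all genes). The 5′ less 3′ control difference was -3.11, -3.87 and -3.04 on the 0.68 arrays, and its part in the spread of this strain was not tested. Without 0.68 replicate 1, 18 ATG genes were called against wild-type instead of 4, all higher, a share of 52.9% where 26.6% of all genes were then called, 12.8% higher. Leaving out wild-type replicate 1, 2 or 3 gave 1, 1 and 2. These were 2.94%, 2.94% and 5.88%, against 1.32%, 4.35% and 6.13% of all genes. Without 0.68 replicate 2 or 3 the counts were 2 and 1 (5.88% and 2.94%, against 7.52% and 1.58% of all genes). Without 0.32 replicate 3 the count was 8 (23.5%, against 15% of all genes). Between 0.95 and 0.68, a comparison added after the values were seen, ATG23 was higher (0.45, adjusted p = 0.0375) and ATG41 lower (-1.0, adjusted p = 0.00134). Of all genes, 4.99% were called, 2.48% higher and 2.51% lower. Without 0.68 replicate 1 the count was 9, with 16.5% of all genes called. The others were ATG1, ATG4, ATG8, ATG9, ATG20, ATG21 and ATG22, all lower at 0.95. That array was left out after its low ATG signals were seen, which favours such calls, so this count is no separate support.

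Genes outside the ATG symbols that work with them were followed in 6 lists, whose counts stand beside the shares of all genes called: 41% in gcn5 null (18.4% higher, 22.6% lower) and 12.5% at 0.95 (7.25% higher, 5.23% lower). Among 7 genes of Cvt cargo and vacuolar hydrolases, 3 rose at 0.95 and none fell. AMS1, the vacuolar alpha-mannosidase carried by Atg19 and Atg34, had a difference of 1.79 at 0.95 (SE 0.26, adjusted p = 9.83e-04) and of 0.72 in gcn5 null (adjusted p = 0.0428), and 0.95 exceeded gcn5 null by 1.08 (adjusted p = 0.00675). APE1, the aminopeptidase that is the main Cvt cargo, had 0.96 at 0.95 (SE 0.20, adjusted p = 0.00848) and 0.44 in gcn5 null (adjusted p = 0.101). The third was PEP4, the vacuolar proteinase A, at 0.41 (adjusted p = 0.0385). In gcn5 null 3 rose as well, AMS1, the proteinase B gene PRB1 at 0.74 (adjusted p = 0.0306) and the carboxypeptidase gene CPS1 at 0.29 (adjusted p = 0.0221). At 0.95, then, the receptor gene ATG19 and the cargo genes AMS1 and APE1 were higher than in wild-type. APE4, of the same list, did not pass by limma at 0.95 (0.09, adjusted p = 0.71) or in gcn5 null (0.07, adjusted p = 0.701).

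All 3 adaptors of selective autophagy rose in gcn5 null: SNX4, the sorting nexin that pairs with Atg20, by 0.69 (adjusted p = 0.00316), CUE5, a ubiquitin-binding receptor, by 0.51 (adjusted p = 0.00530), and VAC8, a vacuolar membrane protein, by 0.39 (adjusted p = 0.0144). SNX4 was lower at 0.95 than in gcn5 null (difference -0.58, adjusted p = 0.0103), as was ATG20. Of 9 transcriptional regulators of ATG genes, 4 rose and 1 fell in gcn5 null, among them GLN3, a GATA activator of nitrogen genes, at 0.71 (adjusted p = 0.00141), URE2, which holds Gln3 back, at 0.50 (adjusted p = 8.30e-04), and GAT1, another GATA activator, at 0.44 (adjusted p = 0.0222). The 4 thus held both activators and a repressor. At 0.95, 0 of the 9 passed by limma, and 2 had an unadjusted p under 0.05.

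Of 17 measured genes of TORC1, protein kinase A and their partners, 3 rose and 3 fell in gcn5 null, a share of calls under the 41% of all genes. TPK3, a catalytic subunit of protein kinase A, fell by 0.83 (SE 0.09, adjusted p = 1.86e-05), SCH9, a kinase under TORC1, fell by 0.68 (adjusted p = 0.00238), and TPK2, another catalytic subunit, rose by 0.63 (adjusted p = 0.0200). At 0.95, 1 of the 17 was higher and 1 lower. Of 15 genes of tethering and vacuole fusion, 2 rose in gcn5 null, the SNARE gene VTI1 at 0.63 (adjusted p = 0.00773) and PEP5 of the class C complex at 0.51 (adjusted p = 0.00193), and 1 rose at 0.95, VPS16 of the same complex at 0.34 (adjusted p = 0.0184). The 3 partners of Atg14 and Atg38 in the PI 3-kinase complex, VPS34, VPS15 and VPS30, passed in no comparison by limma, and 1 had an unadjusted p under 0.05 in gcn5 null. ATG38 was thus the 1 called gene of this complex.

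The 34 genes lie on 13 chromosomes of R64. ATG34 and ATG19, both receptors with a part in alpha-mannosidase transport, are next to each other on chromosome XV, between PHM7 and IRA2, the only such pair. Their differences from wild-type in gcn5 null had opposite signs, -0.49 for ATG34 and 0.48 for ATG19, neither of which passed, and at 0.95 both were positive, 0.54 and 0.78, of which that of ATG19 passed.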

How the data were processed

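Whole cell RNA of 5 strains (3 biological replicates each) was hybridized to 15 Affymetrix Yeast 2.0 arrays. The deposited values are log2 signals that the authors made with RMA (background correction, quantile normalization over the whole array, 1 summary value per probe set); the version is not given in the sources used here. They were used as deposited, with no array left out. The table holds 10928 probe sets, of which 5498 name an S. cerevisiae gene, 1746 an S. pombe gene, 1 several genes and 3683 none. For 47 genes with several probe sets the brightest was kept, and names were updated through the RefSeq table of assembly R64. The table names no genome build, so no coordinates are given.

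A mean per strain was fitted to all 15 arrays with limma 3.58.1 in R 4.3.3 (moderated variances), with Benjamini-Hochberg adjustment over 5449 genes. A gene with an adjusted p under 0.05 is called. Precision is limited by 3 arrays per strain, which gave the ATG genes 95% intervals with a median half-width of 0.35. Probe sets of genes whose strain means all lie under the S. pombe 95th percentile were treated as dim. The procedure was tested on simulated data. Plots were drawn with matplotlib 3.10.9.

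The genes, lists and comparisons were chosen with earlier results of these data known. All ATG genes were counted. Values on every array are given for those called at 0.95, for the slope, for 0.95 against gcn5 null or against 0.32, for the 10 largest called differences in gcn5 null, and for the gene with the largest null difference in each role group. From each list up to 3 genes past the test in gcn5 null or for the slope, with the largest differences, are named. ATG16, at background, is given by its range only. ATG13, ATG18, PEP4, CPS1 and the genes of the 0.95 against 0.68 comparison were added after their values were seen. Alternatives were all probe sets, a filter on dim genes, 2 other normalizations, trended and robust moderation, array weights, averaging over a gene's probe sets, a block for the replicate number, only the arrays compared, an absolute log2 difference over 1, and leaving out each array. The cut on the log2 difference was applied to the counts alone, and statements on whether a single call held leave it out. Arrays of the same replicate number did not deviate together and were not paired.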

Additional observations from a re-analysis of the deposited data

Results flagged for a closer look

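For 10 ATG genes the effects of gcn5 null and of gcn5-F221A at 0.95, both against wild-type, differed from each other by limma's test of 0.95 minus gcn5 null. That is 29.41% of the ATG genes, below the 33.1% of all genes called in this test, so the count does not set the ATG genes apart. Both effects use the same wild-type arrays, which drop out of this difference. The difference was -1.27 for ATG1, -0.84 for ATG3, -0.48 for ATG7, -0.68 for ATG8, -0.80 for ATG20, -0.61 for ATG22 and -0.76 for ATG41. It was 0.62 for ATG23, 0.29 for ATG32 and 1.04 for ATG34. In 4 of the 10 genes the effects against wild-type had opposite signs. For ATG34 they were 0.54 at 0.95 and -0.49 in gcn5 null, neither of which passed. For ATG41 they were -0.60 and 0.16, for ATG20 -0.10 and 0.70, and for ATG32 0.01 and -0.28, of which those of ATG41 at 0.95 and of ATG20 and ATG32 in gcn5 null passed.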

How the results depend on the processing

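The ATG medians were taken again for the dim filter, the 2 other normalizations and each array left out, and kept their sign in all of these. They were not taken for the other alternatives. No call of a single gene changed direction: of 47 such calls, 19 held in every alternative other than the cut on the log2 difference. With array weights the counts of called ATG genes were 22 for gcn5 null, 16 at 0.68, 16 at 0.95, 19 for the slope, 8 for 0.95 against 0.32 and 20 for 0.95 against gcn5 null, where 60.6%, 23.7%, 39.9%, 39%, 11.7% and 62.9% of all genes were called. With an absolute log2 difference over 1 they were 2 for gcn5 null, 1 at 0.32, 2 at 0.68, 2 at 0.95, 2 for the slope, 0 for 0.95 against 0.32 and 2 for 0.95 against gcn5 null. No share of all genes was counted at this cut, so these counts have no background beside them. With only the arrays compared the ATG counts were 0 at 0.32, 0 at 0.68 and 0 for 0.95 against 0.32, where 0.11%, 0.0734% and 0.11% of all genes were called. Leaving out single arrays gave 7 to 20 for gcn5 null, 1 to 2 at 0.32, 1 to 18 at 0.68 and 3 to 13 at 0.95. It gave 4 to 18 for the slope, 0 to 2 for 0.95 against 0.32 and 7 to 11 for 0.95 against gcn5 null. In the same order, 30.8% to 45.1%, 0.697% to 2.72%, 1.32% to 26.6%, 6.96% to 17.4%, 7.8% to 23.7%, 0.587% to 5.49% and 25.3% to 37.5% of all genes were called. The ATG medians, again in this order, were 0.28 to 0.36, 0.04 to 0.14, 0.19 to 0.43, 0.12 to 0.21, 0.25 to 0.35, 0.08 to 0.11 and -0.07 to -0.02. The median of 0.43 at 0.68 was without 0.68 replicate 1. The replicate block ended the calls of ATG41 for 0.95 against 0.32 (count 0) and for the slope, ATG18 in gcn5 null, ATG22 at 0.68 and ATG33 at 0.95, and no other; of 15 arrays, 5 correlated best with an array of their own number, and the mean correlation of deviations was -0.07 for equal numbers and 0.04 for others. Other normalizations moved the median of all genes by at most 0.06.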
